A study of Homo sapiens with 8 samples.

Results

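The genes described here are 10 receptor tyrosine kinases that have been linked to resistance against kinase inhibitors: AXL, MERTK, TYRO3, MET, ERBB3, EGFR, KIT, PDGFRA, PDGFRB and IGF1R. They were taken by name, and all 10 were found among 18404 genes measured on 8 Affymetrix arrays. Each gene is represented by the probe set that carries its symbol alone and has the highest mean over the arrays. The cells were COLO829, an established human melanoma line with an activating BRAF mutation. Populations were infected with the pGIPZ vector, which carried either a short hairpin RNA against MITF or a scrambled hairpin, and all were selected with puromycin for 2 days. They then received 1 µM of the BRAF inhibitor PLX4032 (vemurafenib) or DMSO, the solvent control, for 24 h. Each hairpin was combined with each treatment, which made 4 groups of 2 arrays, named A and B. The control cells therefore carried a hairpin vector and had passed through puromycin as well. The labels name a single MITF hairpin and do not say whether A and B were separate cultures. The p-values rest on differences between A and B, pooled over the 4 groups and drawn towards the spread of all genes. Those differences may be technical ones.

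Receptor tyrosine kinases span the plasma membrane, bind a growth factor outside the cell and phosphorylate tyrosines inside it, which recruits adaptors that feed the RAS-MAPK and PI3K-AKT pathways. BRAF acts in the MAPK pathway, downstream of these receptors and of RAS. In melanoma, raised signalling through AXL, MET, EGFR, ERBB3, PDGFRB or IGF1R has been described in cells that survive BRAF inhibitors. MITF is the lineage transcription factor of melanocytes, and low MITF with high AXL is a known melanoma expression state.

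The sequences at the starts of MET and AXL are shown because these were the members with the widest range of levels across the 4 groups. RefSeq windows on GRCh38.p14, from 250 bases before to 50 bases after a transcript start, were found for 9 of the 10 genes, 13 windows in all. They were searched on both strands for CATGTG (the M-box core bound by MITF), CACGTG (the E-box, also bound by MITF), TGACTCA (AP-1), CATTCC (TEAD), GTAAACA (forkhead factors) and ACAAAG (SOX factors). The printed stretches end 20 bases after the start, run 5′ to 3′ along the plus strand, and have the matches in capitals. The MET stretch lies at chr7:116671946-116672215 and the AXL stretch at chr19:41226505-41226774. The AXL stretch belongs to the second of its 2 RefSeq starts, the one whose window held matches. Which start these cells use was not tested.
MET: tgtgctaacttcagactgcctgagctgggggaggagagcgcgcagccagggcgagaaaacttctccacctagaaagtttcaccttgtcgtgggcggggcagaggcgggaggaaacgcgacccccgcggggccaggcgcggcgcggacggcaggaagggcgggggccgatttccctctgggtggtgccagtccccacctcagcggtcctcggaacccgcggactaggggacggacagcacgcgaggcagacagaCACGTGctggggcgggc
AXL: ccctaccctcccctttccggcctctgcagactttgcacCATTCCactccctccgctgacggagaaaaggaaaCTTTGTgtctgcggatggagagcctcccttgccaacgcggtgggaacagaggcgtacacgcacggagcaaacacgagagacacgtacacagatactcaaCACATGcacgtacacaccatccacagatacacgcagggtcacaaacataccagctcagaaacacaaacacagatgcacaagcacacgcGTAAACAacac
The MET window holds the E-box, which begins at base 4 of the transcript. The AXL window holds the TEAD match 212 bases before the start, the SOX match on the opposite strand 178 bases before it, the M-box core on the opposite strand 79 bases before it, and the forkhead match at base 10 of the transcript. The window of the other AXL start had no match. Besides MET and AXL, EGFR had matches, to the M-box core and to the TEAD and AP-1 motifs, in 1 of its windows. Of all 35116 windows of the table, 7.26% held the E-box, 11.1% the M-box core, 4.95% the AP-1 motif, 14% the TEAD motif, 3.42% the forkhead motif and 16.1% the SOX motif. A match describes the letters only and is not evidence of binding, and windows without one are silent on the factor.

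The hairpin and the inhibitor both left their marks on the arrays. MITF mRNA was 10.44 and 10.46 (log2 intensity, the unit of all levels given) with the scrambled hairpin in DMSO and 9.57 and 9.47 with the MITF hairpin. It fell by 0.93 ± 0.0803 (log2 change ± SE, limma, n = 2 arrays a group; 1.91-fold, adjusted p = 8.28e-06) in DMSO and by 0.76 under PLX4032, where its arrays read 10.88 and 10.80 against 10.07 and 10.08. DUSP6 and SPRY4, transcripts that follow ERK activity, fell on PLX4032 by factors of 6.42 and 22.7 in scrambled cells; in knockdown cells the factors were 5.85 and 39.4. The 7 measured melanocyte lineage markers were all above the dimmest 40% of genes. Their mean level was 9.8 in scrambled DMSO cells, 10.97 with PLX4032, 9.1 with the MITF hairpin and 10.24 with both. Singly, 4 of these 7 markers fell and 1 rose on knockdown in DMSO, where 18.8% of all genes fell and 14.4% rose. Of 21 measured markers of fibroblasts, leukocytes, keratinocytes and endothelium, 15 were among the dimmest 40%, and the mean level of each list moved by at most 0.24 between groups. CD14 was among those that rose on knockdown in DMSO, by 0.85. LUM and CD68, with mean levels of 9.69 and 10.73, rose there by 0.39 and 0.28, and COL1A2 fell by 0.41. The part of other cells in the results was not tested. Replicate arrays correlated at r = 0.99734 to 0.99844 across genes. In bulk RNA, fewer cells with a transcript and less of it per cell cannot be told apart.

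**Figure D1:**
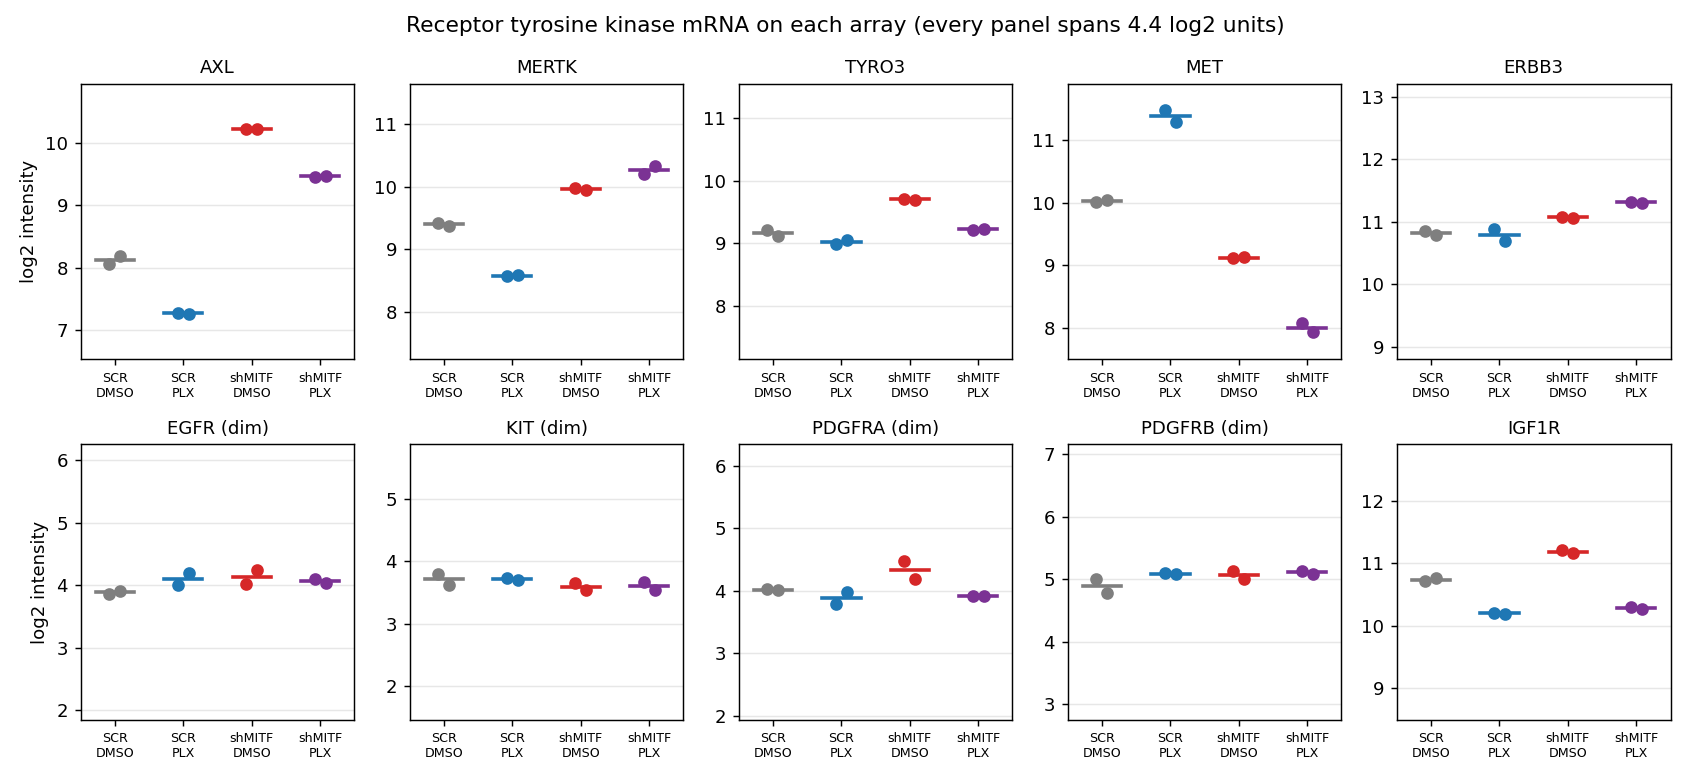
Log2 intensity of the 10 receptor genes on each of the 8 arrays, 1 panel a gene, with the 4 groups along the x axis, a point per array and a bar at the group mean; every panel spans the same number of log2 units. AXL, MERTK, TYRO3, MET and IGF1R separate all 4 groups, though some groups of TYRO3 and IGF1R lie close together. EGFR, KIT, PDGFRA and PDGFRB stay within narrow ranges.

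AXL, MERTK and TYRO3 form the TAM family, receptors for the vitamin K-dependent ligands GAS6 and PROS1. All 3 were higher after MITF knockdown in DMSO, and AXL moved farthest. AXL (probe set 8029006) was 8.06 and 8.19 in scrambled DMSO cells, 7.28 and 7.26 with PLX4032, 10.21 and 10.22 with the MITF hairpin, and 9.45 and 9.47 with both. The 4 groups did not overlap, and every array with the MITF hairpin was above every array without it. How many of all genes separate their groups was not counted, here or for the receptors below. AXL rose by 2.09 ± 0.0805 on knockdown in DMSO (4.26-fold, limma adjusted p = 3.78e-08) and by 2.19 under PLX4032 (4.56-fold, adjusted p = 1.2e-08). PLX4032 lowered it in both kinds of cell: it fell by 0.86 in scrambled cells (1.81-fold, adjusted p = 1.21e-05) and by 0.76 in knockdown cells (1.69-fold, adjusted p = 2.41e-05). The inhibitor's change in knockdown cells differed from that in scrambled cells by 0.10 (95% interval -0.15 to 0.35; adjusted p = 0.671), so no difference in its effect was detected. With both perturbations AXL stood 2.52-fold above scrambled DMSO cells (adjusted p = 1.8e-07).

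MERTK (probe set 8044391), the TAM receptor best known from the clearance of dying cells, responded to the inhibitor in opposite directions in the 2 kinds of cell. It was 9.42 and 9.38 in scrambled DMSO cells, 8.57 and 8.59 with PLX4032, 9.98 and 9.95 with the MITF hairpin, and 10.20 and 10.32 with both. Again no 2 groups overlapped, and the lowest and the highest group were the 2 that received PLX4032. MERTK fell by 0.82 ± 0.0813 on PLX4032 in scrambled cells (1.76-fold, limma adjusted p = 1.86e-05) and rose by 0.30 in knockdown cells (1.23-fold, adjusted p = 0.0152). The second of these calls is the less firm: without MITF hairpin DMSO A it was 0.31 (adjusted p = 0.0589), without MITF hairpin DMSO B 0.28 (adjusted p = 0.0982), and without MITF hairpin PLX4032 B 0.23 (adjusted p = 0.114). The difference between the inhibitor's changes was 1.11 ± 0.115 (95% interval 0.86 to 1.37; adjusted p = 0.000111). Knockdown raised MERTK 1.48-fold in DMSO (adjusted p = 0.000319) and 3.2-fold under PLX4032 (adjusted p = 8.07e-08).

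TYRO3 (probe set 7982938), the third TAM receptor, varied less. It was 9.21 and 9.12 in scrambled DMSO cells, 8.99 and 9.05 with PLX4032, 9.71 and 9.69 with the MITF hairpin, and 9.21 and 9.23 with both. The 4 groups did not overlap, but scrambled DMSO A (9.211) and knockdown PLX4032 A (9.214) nearly met. The widest gap lay between the knockdown cells in DMSO and the other groups. TYRO3 rose by 0.53 ± 0.0794 on knockdown in DMSO (1.45-fold, limma adjusted p = 0.000423) and fell by 0.48 on PLX4032 in knockdown cells (1.39-fold, adjusted p = 0.000647). Its value was -0.15 on PLX4032 in scrambled cells (95% interval -0.32 to 0.03; adjusted p = 0.188) and 0.20 on knockdown under PLX4032 (interval 0.03 to 0.38; adjusted p = 0.0836), neither called. The latter passed the test in a fit without the dimmest 40% of genes (adjusted p = 0.0435) and in one with a variance trend (adjusted p = 0.0355). With both perturbations it was 0.06 from scrambled DMSO cells (interval -0.12 to 0.23; adjusted p = 0.585).

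MET, the receptor of hepatocyte growth factor, moved against AXL and MERTK on knockdown and showed the widest range of the 10 genes, 10.4-fold between its highest and lowest group. MET (probe set 8135601) was 10.01 and 10.04 in scrambled DMSO cells, 11.48 and 11.29 with PLX4032, 9.12 and 9.13 with the MITF hairpin, and 8.08 and 7.93 with both. All 4 groups were separate, and as for MERTK the inhibitor-treated groups stood at the 2 ends of the range. PLX4032 raised MET by 1.36 ± 0.0916 in scrambled cells (2.57-fold, limma adjusted p = 1.11e-06), and MET fell by 1.12 on PLX4032 in knockdown cells (2.17-fold, adjusted p = 3.31e-06). The difference between these changes was -2.48 ± 0.13 (95% interval -2.76 to -2.19; adjusted p = 1.91e-06), the tenth lowest among all genes tested. Knockdown lowered MET 1.87-fold in DMSO (adjusted p = 2.81e-05) and 10.4-fold under PLX4032 (adjusted p = 1.84e-09). Only 3 genes of all tested fell farther on knockdown under PLX4032. MITF mRNA itself was higher in knockdown cells with PLX4032, at a mean of 10.08, than in knockdown cells with DMSO, at 9.52. MET was lower there, at 8.01 against 9.12. The arrays do not read MITF protein, and a link between the levels of MITF and MET was not tested.

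IGF1R (probe set 7986359), the receptor of insulin-like growth factors, rose on knockdown in DMSO and fell on PLX4032, as AXL did. It was 10.72 and 10.76 in scrambled DMSO cells, 10.21 and 10.19 with PLX4032, 11.21 and 11.16 with the MITF hairpin, and 10.30 and 10.26 with both. IGF1R rose by 0.45 ± 0.0771 on knockdown in DMSO (1.36-fold, limma adjusted p = 0.00122). It fell by 0.54 on PLX4032 in scrambled cells (1.45-fold, adjusted p = 0.000261) and by 0.90 in knockdown cells (1.87-fold, adjusted p = 4.55e-06). Under PLX4032 the arrays with and without the MITF hairpin did not overlap but differed by 0.08 (95% interval -0.09 to 0.25; adjusted p = 0.475). The difference between the inhibitor's changes was -0.36 (interval -0.6 to -0.12; adjusted p = 0.0561). A second IGF1R probe set (7986383), with group means of 6.88, 6.32, 7.03 and 6.91 in the same order, read the inhibitor differently: -0.56 in scrambled cells and -0.12 in knockdown cells, a difference of 0.44. The 2 probe sets thus differ in the sign of that difference, and with their mean it was 0.04.

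ERBB3 and EGFR belong to the EGF receptor family. ERBB3, which has little kinase activity of its own and signals with partners such as ERBB2 when neuregulin binds, lay well above the dimmest 40% of genes, whereas EGFR was among them. ERBB3 (probe set 7956120) was 10.85 and 10.80 in scrambled DMSO cells, 10.89 and 10.70 with PLX4032, 11.08 and 11.07 with the MITF hairpin, and 11.32 and 11.30 with both. Every array with the MITF hairpin was above every array without it. ERBB3 rose by 0.52 on knockdown under PLX4032 (1.43-fold, limma adjusted p = 0.00102) and by 0.25 ± 0.0873 in DMSO (1.19-fold, adjusted p = 0.049). The change in DMSO lay at the threshold: 6 of the 8 fits that left out 1 array lost it, with values of 0.22 to 0.28 over the 8. On PLX4032 ERBB3 was at -0.03 in scrambled cells (95% interval -0.22 to 0.16; adjusted p = 0.817) and 0.24 in knockdown cells (interval 0.04 to 0.43; adjusted p = 0.0597). The value in knockdown cells also lay near the threshold, and it was called with repeated quantile normalization (0.28, adjusted p = 0.0148), without the dimmest 40% of genes (adjusted p = 0.0296), with a variance trend (adjusted p = 0.0131), and without scrambled hairpin PLX4032 A or B (adjusted p = 0.0444 each). EGFR (probe set 8132860), the receptor of EGF, TGFA and HBEGF, ranged from 3.86 to 4.24 over the 8 arrays and was not called in any comparison. Its largest change between groups was 0.25 on knockdown in DMSO (interval 0.03 to 0.46; adjusted p = 0.0798).

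KIT, the stem cell factor receptor that melanocytes need to survive, and the platelet-derived growth factor receptors PDGFRA and PDGFRB share a receptor class, and all 3 were among the dimmest 40% of genes. KIT (probe set 8095110) was between 3.53 and 3.80 on all arrays and was not called, its largest value being -0.12 on knockdown under PLX4032 (95% interval -0.32 to 0.09; limma adjusted p = 0.39). PDGFRB (probe set 8115099) was between 4.77 and 5.14 and was not called either, with 0.22 for both perturbations together (interval 0.01 to 0.43; adjusted p = 0.0798). Without scrambled hairpin DMSO A that value was 0.34 (adjusted p = 0.0209), and the value on PLX4032 in scrambled cells was 0.31 (adjusted p = 0.0398). A second probe set (8115543) is annotated to PDGFRB and to another gene, so its signal cannot be assigned to either and it is not counted here. Its group means were 8.79 in scrambled DMSO cells, 8.33 with PLX4032, 9.39 with the MITF hairpin and 7.63 with both, so PDGFRB is described as dim by its own probe set only. PDGFRA (probe set 8095080) was 4.03 and 4.01 in scrambled DMSO cells, 3.80 and 3.97 with PLX4032, 4.48 and 4.18 with the MITF hairpin, and 3.92 and 3.91 with both. The knockdown cells in DMSO were the highest, and array A of that group was the highest of all. PDGFRA rose by 0.32 ± 0.107 on knockdown in DMSO (adjusted p = 0.0428) and fell by 0.42 on PLX4032 in knockdown cells (adjusted p = 0.0102). Without MITF hairpin DMSO A these were 0.17 (adjusted p = 0.334) and -0.27 (adjusted p = 0.12), and the rise was also lost without scrambled hairpin DMSO A (0.32, adjusted p = 0.0864) or B (0.31, adjusted p = 0.132), and with repeated quantile normalization (0.26, adjusted p = 0.0791). No detection calls were used, so these low levels do not show absence.

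**Figure D2:**
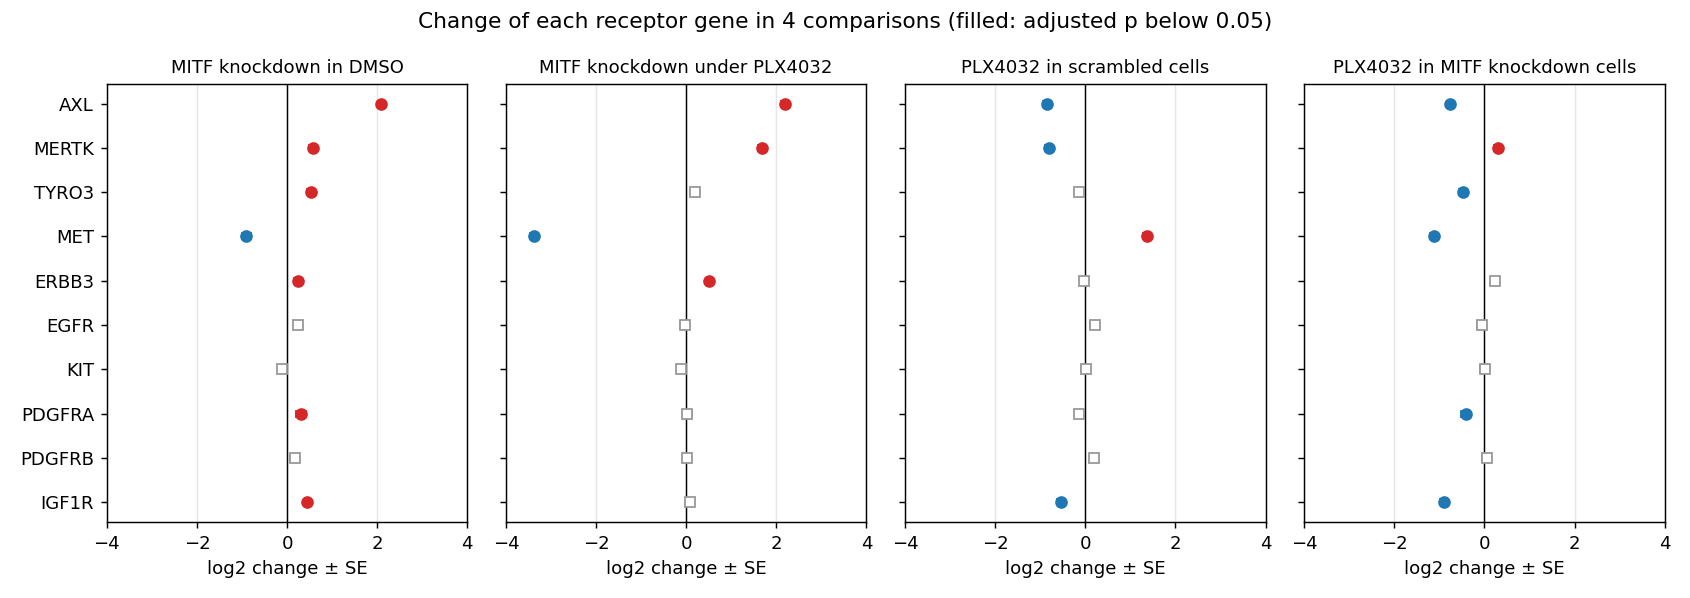
Log2 change with its SE for each of the 10 receptor genes (rows) in 4 comparisons (panels): each perturbation alone and each in the presence of the other; filled points have a limma adjusted p below 0.05 (red higher, blue lower), and SE bars are mostly hidden by the symbols. On the x axis MET lies opposite to AXL and MERTK in both knockdown panels and changes sign between the 2 inhibitor panels.

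Counted together, 6 of the 10 receptors rose on knockdown in DMSO (AXL, MERTK, TYRO3, ERBB3, PDGFRA and IGF1R) and 1, MET, fell. Of all genes tested, 14.4% rose and 18.8% fell. The calls of ERBB3 (limma adjusted p = 0.049) and PDGFRA (0.0428) lay near the threshold and were lost in several alternatives. The 10 genes had a median level of 9.02, beside 6.80 over all genes, and level was not matched. The median change of the 10 was 0.28, beside 0.02 over all genes. On PLX4032 in scrambled cells MET rose and AXL, MERTK and IGF1R fell, where 17.3% of all genes rose and 16.8% fell; the medians were -0.08 and 0.05. On PLX4032 in knockdown cells MERTK rose and 5 fell (AXL, TYRO3, MET, PDGFRA and IGF1R), beside 18.6% and 15.1% of all genes; the medians were -0.24 and 0.04. Knockdown under PLX4032 raised AXL, MERTK and ERBB3 and lowered MET, beside 13.5% and 15% of all genes; the medians were 0.06 and 0.02. Against scrambled DMSO cells, both perturbations together raised AXL, MERTK and ERBB3 and lowered MET and IGF1R, beside 27.1% and 21.5% of all genes; the medians were 0.12 and 0.08. These comparisons share groups, so their counts are not independent of each other.

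The inhibitor's effect depended on the hairpin for MERTK and MET alone among the 10 by this test, beside 6.97% of all genes with a higher and 4.85% with a lower response in knockdown cells. The sum of the 2 separate changes from scrambled DMSO cells was 0.46 for MET, and the measured change with both was -2.02. For MERTK the sum was -0.25 and the measured change 0.86. AXL came close to its sum, 1.24 against 1.33. For TYRO3 the sum was 0.39 against a measured 0.06, and for ERBB3 0.22 against 0.48, with differences of -0.33 (95% interval -0.58 to -0.08; limma adjusted p = 0.0862) and 0.27 (interval -0.01 to 0.54; adjusted p = 0.215) that missed the threshold. TYRO3 and IGF1R were called as well, 4 members in all, in a fit without the dimmest 40% of genes and in one with a variance trend. IGF1R was also called with repeated quantile normalization (-0.40, adjusted p = 0.0239) and with median centring (-0.39, adjusted p = 0.0279).

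**Figure D3:**
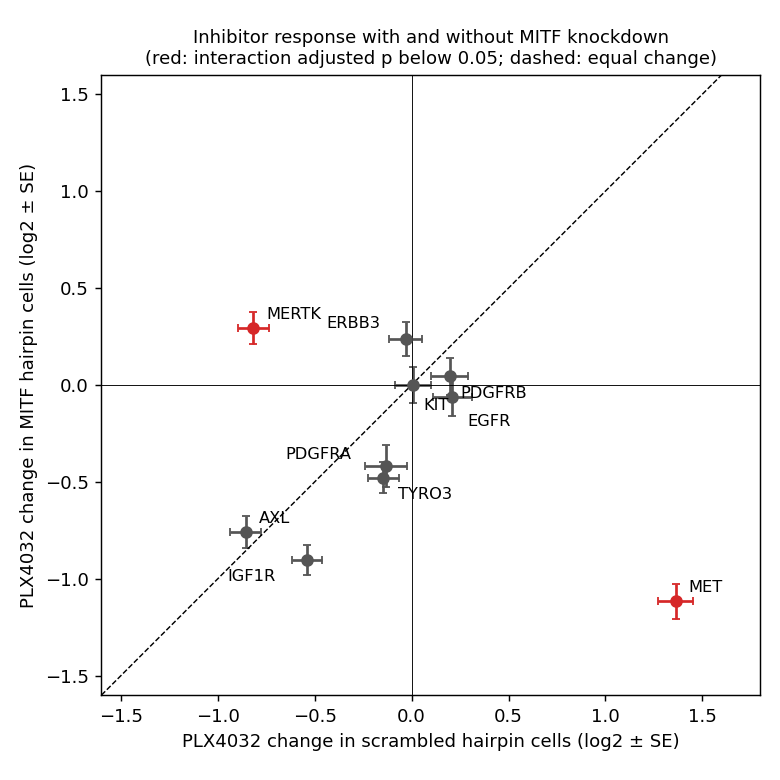
PLX4032 change of each of the 10 receptor genes in MITF hairpin cells (y axis, log2 with SE) against that in scrambled hairpin cells (x axis); the dashed line marks equal change and red points have an interaction adjusted p below 0.05. MET lies far below the line and MERTK above it, while AXL lies close to it.

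Ordered by level within each gene, the groups gave 3 patterns among the members at higher signal. AXL ran from scrambled PLX4032 through scrambled DMSO and knockdown PLX4032 to knockdown DMSO, with every step between neighbours called. MERTK ran from scrambled PLX4032 through scrambled DMSO and knockdown DMSO to knockdown PLX4032, again with every step called. The last step of MERTK was the less firm call given above. MET ran in exactly the reverse order, with every step called. TYRO3 had the order of AXL, but of its steps only that between the 2 knockdown groups was called. ERBB3 had the order of MERTK; its step from scrambled to knockdown in DMSO was called and the others were not, but this step and the one between the knockdown groups lay near the threshold. In IGF1R the 2 PLX4032 groups were lowest and not distinguished from each other.

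The genes whose 4 group means ran closest to those of AXL, MERTK and MET were found by the distance between centred group means, and are a description with no test. Nearest to AXL were GALNT5, a glycosyltransferase (distance 0.296, r = 0.9879 over 8 arrays), PLPP3, a lipid phosphatase (0.371, r = 0.9873), and PTGS1, the cyclooxygenase COX-1 (0.4, r = 0.9939). Nearest to MERTK were the growth factor TGFB3 (0.165, r = 0.9871), the ephrin receptor EPHA2 (0.193, r = 0.9859) and the kinase MAP3K4 (0.272, r = 0.9775). Nearest to MET were MREG, which acts in melanosome transport (0.391, r = 0.986), the ERBB4 ligand NRG3 (0.583, r = 0.9855) and FRMD4B, a scaffold protein (0.753, r = 0.9603). MREG read 9.03, 10.09, 7.69 and 7.03 in scrambled DMSO, scrambled PLX4032, knockdown DMSO and knockdown PLX4032 cells, the same order as MET.

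**Figure D4:**
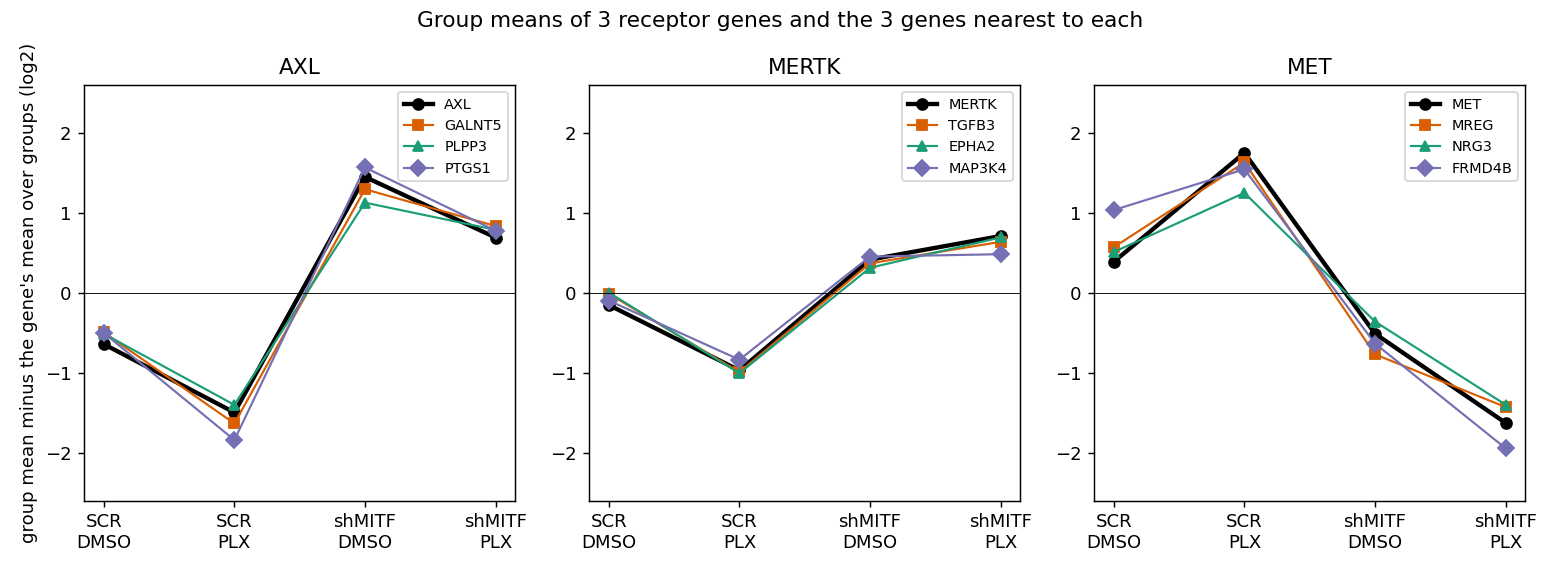
Group means of AXL, MERTK and MET (heavy black lines) and of the 3 genes nearest to each (thin coloured lines) across the 4 groups on the x axis, each centred on its own mean (y axis, log2). The lines lie closest together for MERTK and are widest apart for MET, whose neighbours have the same order of groups.

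Ligands of the 10 receptors, taken as a list of 19 of which 17 were measured, included some of the larger changes. On knockdown in DMSO 6 rose and 1 fell, where 14.4% and 18.8% of all genes did. On PLX4032 2 rose and 4 fell in scrambled cells, beside 17.3% and 16.8% of all genes. In knockdown cells 3 rose and 6 fell on PLX4032, beside 18.6% and 15.1%. On knockdown under PLX4032 7 rose and 0 fell, beside 13.5% and 15%. HGF, the ligand of MET, was 8.67 and 8.86 in scrambled DMSO cells and 5.94 and 5.66 with PLX4032, and 8.87 and 8.68 against 6.04 and 6.26 with the MITF hairpin. It fell by 2.97 ± 0.123 on PLX4032 in scrambled cells (7.82-fold, limma adjusted p = 4.29e-08) and by 2.62 in knockdown cells (6.16-fold, adjusted p = 4.95e-08), while knockdown in DMSO gave 0.00 (adjusted p = 0.984). In scrambled cells on PLX4032 the receptor MET was thus higher and its ligand lower, and in knockdown cells both were lower.

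TGFA, a ligand of EGFR, was 7.58 and 7.75 in scrambled DMSO cells, 5.41 and 5.21 with PLX4032, 9.16 and 9.28 with the MITF hairpin, and 6.87 and 6.94 with both. It rose by 1.56 ± 0.0994 on knockdown (2.94-fold, limma adjusted p = 9.82e-07) and fell by 2.35 on PLX4032 in scrambled cells and, likewise, fell by 2.32 in knockdown cells. HBEGF, another EGFR ligand, rose by 0.82 on knockdown in DMSO and by 1.05 under PLX4032. KITLG, the stem cell factor that binds KIT, was 6.55 and 7.03, then 5.64 and 5.48, then 7.87 and 7.91, and 7.06 and 7.35 in the same order of groups. It rose by 1.10 on knockdown in DMSO (adjusted p = 0.000186) and by 1.64 under PLX4032 (adjusted p = 8.5e-06), and fell by 1.23 on PLX4032 in scrambled cells. The receptors of these ligands, EGFR and KIT, were the dim ones above.

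PDGFC, a ligand of PDGFRA, was 6.50 and 6.71 in scrambled DMSO cells, 5.34 and 5.71 with PLX4032, 5.57 and 5.58 with the MITF hairpin, and 6.57 and 6.78 with both. It fell by 1.08 on PLX4032 alone and by 1.03 on knockdown alone, and with both it was 0.07 from scrambled DMSO cells (limma adjusted p = 0.695). The inhibitor's changes differed by 2.17 ± 0.18 (adjusted p = 2.73e-05). Of the TAM ligands, PROS1 rose by 0.70 on PLX4032 in knockdown cells (adjusted p = 0.000248) and by 0.63 with both perturbations, and GAS6 ranged from 4.85 to 5.42 and was not called in any comparison. NRG1, the neuregulin that binds ERBB3, ranged from 4.17 to 4.55, rose by 0.33 on knockdown in DMSO (limma adjusted p = 0.00805) and fell by 0.33 on PLX4032 in knockdown cells (adjusted p = 0.00644). Like GAS6, NRG1 was among the dimmest 40% of genes.

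**Figure D5:**
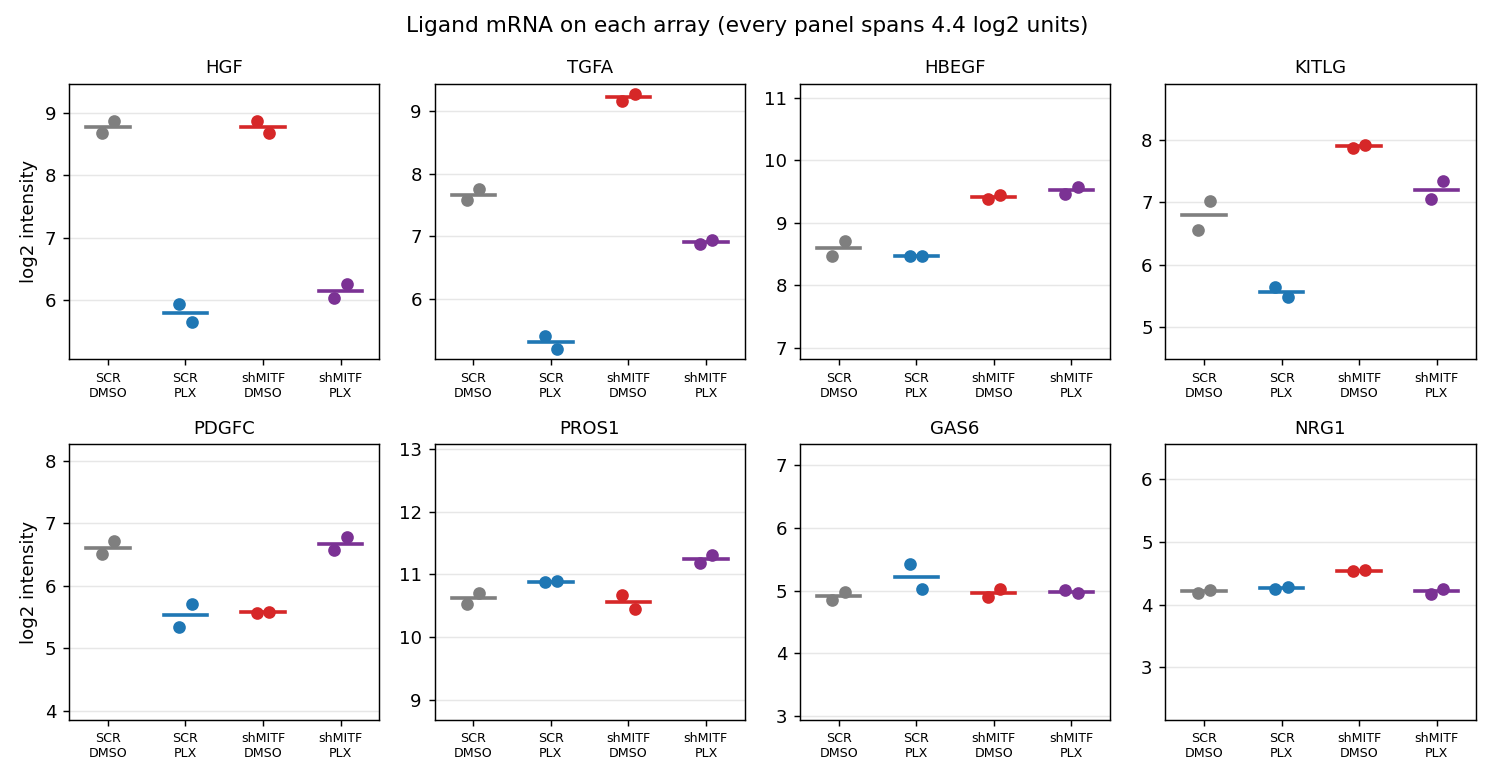
Log2 intensity of ligands of the 10 receptors on each of the 8 arrays, 1 panel a gene, with the 4 groups along the x axis, a point per array and a bar at the group mean; every panel spans the same number of log2 units. HGF and TGFA are lower in both PLX4032 groups, while TGFA, KITLG and HBEGF are higher with the MITF hairpin in each treatment.

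Adaptors and effectors that act next to the receptors (24 of 28 measured) showed 6 rises and 1 fall on PLX4032 in scrambled cells. Of all genes 17.3% rose and 16.8% fell there. In knockdown cells the adaptors and effectors showed 10 rises and 3 falls, beside 18.6% and 15.1% of all genes. The first total, 7, was 11 with repeated quantile normalization and 12 with a variance trend. Their median changes were 0.18 and 0.12, beside 0.05 and 0.04 over all genes. GAB1, the docking protein that binds MET, rose by 1.37 and by 1.92 in the 2 kinds of cell (limma adjusted p = 1.21e-06 and 6.73e-08). PIK3R3, a regulatory subunit of PI3K, rose by 1.83 and 1.02. GRB14, an inhibitor of insulin and IGF receptor signalling, rose by 2.13 in knockdown cells and was 0.18 in scrambled cells, a difference of 1.96 ± 0.129 (limma adjusted p = 6.63e-06). Its mean level over the arrays, 5.28, was among the dimmest 40% of genes. On knockdown in DMSO 5 rose and 6 fell, where 14.4% and 18.8% of all genes did. GAB2, another docking protein, led the falls. It was 9.12 and 9.01 against 7.32 and 7.23 and fell by 1.79 (3.45-fold, limma adjusted p = 3.44e-07). That count of 11 was 6 without MITF hairpin DMSO A, 5 without MITF hairpin DMSO B and 7 without scrambled hairpin DMSO B.

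Negative regulators and genes of receptor turnover (21 of 23 measured) changed in both directions. On knockdown in DMSO 5 rose and 5 fell, where 14.4% and 18.8% of all genes did. On PLX4032 in scrambled cells 3 rose and 4 fell, beside 17.3% and 16.8% of all genes. With PLX4032 after knockdown 4 rose and 7 fell, beside 18.6% and 15.1%. The second of these totals, 7, was 4 without scrambled hairpin PLX4032 A or B. ERRFI1, an inhibitor of EGF receptor family kinases, fell by 1.98 ± 0.124 on PLX4032 in scrambled cells and fell by 2.02 in knockdown cells (limma adjusted p = 6.48e-07 and 3.42e-07). LRIG1, which promotes degradation of EGF receptor family members and MET, fell by 0.67 on knockdown in DMSO and rose by 1.26 on PLX4032 in knockdown cells. SOCS6, which binds activated KIT, was 7.87 and 8.01 in scrambled DMSO cells, 9.76 and 9.69 with PLX4032, 8.35 and 8.32 with the MITF hairpin, and 7.62 and 7.58 with both. Like MET it rose on PLX4032 in scrambled cells, by 1.79, and fell in knockdown cells, by 0.73, a difference of -2.52 ± 0.117 (adjusted p = 1.11e-06). NEDD4L, a ubiquitin ligase, fell by 0.98 on knockdown in DMSO and by 1.08 and 1.24 on PLX4032 in the 2 kinds of cell.

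Of the IGF binding proteins, which hold IGFs in the extracellular space, 6 of 7 were measured. For the count given below, 14.4% of all genes rose and 18.8% fell on knockdown in DMSO. IGFBP3 was 8.32 and 8.52 in scrambled DMSO cells, 7.05 and 7.20 with PLX4032, 10.19 and 10.16 with the MITF hairpin, and 7.83 and 7.87 with both. It rose by 1.75 on knockdown in DMSO (3.37-fold, limma adjusted p = 2.56e-07) and fell by 1.30 on PLX4032 in scrambled cells and fell by 2.32 in knockdown cells. IGFBP5 rose by 0.42 on knockdown and fell by 1.18 and 0.51 on PLX4032, so both had the signs seen in IGF1R. On knockdown in DMSO these 2 were called higher and 0 lower; without MITF hairpin DMSO A the IGFBP5 value was 0.32 (adjusted p = 0.0767), and the count was 4 without either MITF hairpin PLX4032 array.

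Transcription factors reported to control the receptors (21 of 21 measured) rose on PLX4032 in 10 cases and fell in 5 in scrambled cells. Of all genes 17.3% rose and 16.8% fell there. In knockdown cells 13 rose and 3 fell, beside 18.6% and 15.1% of all genes. JUN, an AP-1 subunit linked to AXL and EGFR expression in melanoma, was 5.79 and 5.66 in scrambled DMSO cells, 7.93 and 8.10 with PLX4032, 6.90 and 7.01 with the MITF hairpin, and 9.94 and 10.03 with both. It rose in each comparison between groups and stood 19.1-fold above scrambled DMSO cells with both perturbations (limma adjusted p = 3.32e-10). AXL fell on PLX4032 in both kinds of cell, and a link between JUN and AXL was not tested. FOXD3, a neural crest factor reported to raise ERBB3 on BRAF inhibition, was 7.16 and 6.83, then 8.12 and 7.96, then 7.57 and 7.49, and 10.24 and 10.14 in the same order of groups. Its rise on PLX4032 was 1.04 in scrambled cells, where ERBB3 was at -0.03, and 2.66 in knockdown cells, where ERBB3 was at 0.24. A link between FOXD3 and ERBB3 was not tested either. SOX10, the neural crest factor whose loss has been linked to raised EGFR and PDGFRB, was 0.13 on knockdown in DMSO (adjusted p = 0.337) and rose by 0.53 and 0.52 when PLX4032 was given. FOSL1, another AP-1 subunit, fell by 1.96 on PLX4032 in scrambled cells and by 0.92 in knockdown cells.

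Among 43 other receptor tyrosine kinases measured of 48 listed, 23 were among the dimmest 40% of genes. On knockdown in DMSO 15 rose and 4 fell, with a median of 0.12, where 14.4% and 18.8% of all genes did. This total of 19 was 12 in a fit without the dimmest 40% of genes, which leaves out those 23 receptors. It was also lower without MITF hairpin DMSO A or B, or without scrambled hairpin DMSO B. FLT1, a receptor of VEGF, was 7.18 and 7.37 in scrambled DMSO cells, 6.57 and 6.83 with PLX4032, 8.91 and 8.87 with the MITF hairpin, and 9.29 and 9.27 with both, the order of MERTK. It rose by 1.61 on knockdown in DMSO and by 2.58 under PLX4032 (limma adjusted p = 9.36e-07 and 1.72e-08). EPHA2, the ephrin receptor nearest to MERTK, fell by 1.01 on PLX4032 in scrambled cells and rose by 0.38 in knockdown cells, a difference of 1.39 ± 0.125 (adjusted p = 4.22e-05). EPHB3 rose by 1.48 and 1.79 on knockdown in DMSO and under PLX4032. ERBB2, the partner of ERBB3, was 8.25 and 8.30 in scrambled DMSO cells and 9.21 and 9.19 with both perturbations, and rose by 0.42 on PLX4032 in scrambled cells and by 0.80 in knockdown cells.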

How the data were processed

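RNA of 8 samples was biotin-labelled and hybridised to Affymetrix arrays. The series table as deposited holds 1 log2 intensity for each probe set and sample, from RMA per the submitters' processing notes; its version, the genome build and the annotation were not stated in the sources used here. RMA sets the probe intensity distributions of all arrays alike, so a shift shared by most genes would not be seen. The array medians over genes still ran from 6.74 to 6.81. The shares of all genes called depend on the scaling. With median centring, both perturbations together raised 4289 genes and lowered 4263, against 4979 and 3966. With repeated quantile normalization, 1158 genes were called lower in the interaction, against 893. Of 32321 probe sets, the platform annotation gave 19158 a single symbol, 1388 more than 1 and 11775 none; the brightest probe set per symbol left 18404 genes, with no filter. A PDGFRB probe set that also carries another symbol was left out by this rule. Columns of other samples numbered 0.

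The fit was limma 3.58.1 (lmFit, eBayes; R 4.3.3) with 1 mean for each group, 4 residual and 6.73 prior degrees of freedom, two-sided tests, and Benjamini-Hochberg adjustment over all genes within a contrast; a gene was called at an adjusted p below 0.05. The script was tested on simulated data. SEs had a median of 0.0939 for changes and 0.133 for the interaction; the number of arrays limits the precision. Members and gene lists were chosen with earlier results of these data known. The genes named are all members, MITF, DUSP6, SPRY4, and up to 4 called genes with the largest changes per list and contrast. The 3 nearest genes of members whose group means span at least 1 are named as well. SOX10, GAS6, CD14, LUM, CD68 and COL1A2 are also given where they fall outside this rule, chosen after their values were seen. Alternatives were repeated quantile normalization, median centring, leaving out the dimmest 40% of genes (mean level below 5.87), the mean of a gene's probe sets, a variance trend, only the arrays compared, a replicate block, and leaving out each array. Sequences are from RefSeq on GRCh38.p14.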

Additional observations from a re-analysis of the deposited data

Results flagged for a closer look

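The response of MET to PLX4032 differed between the 2 kinds of cell by a test of the difference itself: it was 1.36 in scrambled cells and -1.12 in knockdown cells, a difference of -2.48 (log2; limma adjusted p = 1.91e-06), with both arrays on the same side in each group. The response of MERTK differed the other way, -0.82 in scrambled cells and 0.30 in knockdown cells, a difference of 1.11 (limma adjusted p = 0.000111). No other member passed this test.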

How the results depend on the processing

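Over the alternatives, 866 values of the members' changes were recomputed: 811 kept their direction and side of the threshold, 15 calls were lost, 16 were gained, and 24 values changed sign, 0 of them called. Of 2513 values of named list genes, 58 lost their call and 0 changed sign. Sign changes among uncalled values were, with repeated quantile normalization, 0.06 (ERBB3) and -0.035 (KIT) for PLX4032 in scrambled cells, -0.026 (KIT) in knockdown cells, -0.043 (PDGFRB) for knockdown under PLX4032 and 0.009 (KIT) for the interaction. With median centring they were -0.011 (KIT) for PLX4032 in scrambled cells, and -0.047 (KIT) and -0.003 (PDGFRB) in knockdown cells. With the mean of its probe sets the IGF1R interaction was 0.04; then its value for both perturbations lost its call (-0.21, limma adjusted p = 0.0775) and that for knockdown under PLX4032 gained one (0.34, adjusted p = 0.0174).

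Without 1 array at a time, sign changes occurred in ERBB3 (-0.129 to 0.066) and KIT (-0.084 to 0.098) for PLX4032 in scrambled cells, EGFR (-0.169 to 0.044), KIT (-0.062 to 0.067) and PDGFRB (-0.017 to 0.109) for PLX4032 in knockdown cells, EGFR (-0.123 to 0.066), PDGFRA (-0.06 to 0.119) and PDGFRB (-0.001 to 0.046) for knockdown under PLX4032, and KIT (-0.095 to 0.087) for the interaction. The number of all genes called ranged from 3723 (without MITF hairpin DMSO B) to 6377 for knockdown in DMSO, against 6114, and from 1278 (without MITF hairpin DMSO B) to 2132 for the interaction, against 2176. It was 1427 without MITF hairpin DMSO A and 1431 without scrambled hairpin PLX4032 A.

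For the interaction, 4 members were called in place of 2 both without the dimmest genes and with a variance trend; TYRO3 (adjusted p = 0.0417 and 0.0291) and IGF1R (0.0252 and 0.00925) were added; the cause of these shifts was not tested. The labels do not say whether the letters A and B pair the samples. Correlations of the A arrays' deviations from their group means ran from -0.094 to 0.329 over 6 pairs of groups. The highest was between MITF hairpin PLX4032 and scrambled hairpin DMSO. With the letter as a replicate block, the members called numbered 7, 4, 6, 4, 5 and 2 in the 6 contrasts, as without it, and genes called in the interaction 2176. With it, 4 IGF binding proteins in place of 2 were called on knockdown in DMSO. In the interaction 1 ligand was called higher and 3 lower, beside 6.97% and 4.85% of all genes. That total of 4 was 2 with the block, and it was also lower in several fits without 1 array. Lone arrays were assumed to vary like the other groups. Signal over background is unknown, which limits EGFR, KIT, PDGFRA and PDGFRB.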

Other observations

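Sheddases and their inhibitors, which cut receptors such as AXL, MERTK and MET from the cell surface or prevent it, were measured for 6 of 6 genes. MMP14, a membrane-bound matrix metalloproteinase, was 9.34 and 9.30 in scrambled DMSO cells, 10.33 and 10.22 with PLX4032, 9.46 and 9.47 with the MITF hairpin, and 10.36 and 10.35 with both. It rose by 0.96 and 0.89 on PLX4032 in scrambled and knockdown cells (limma adjusted p = 5.03e-06 and 6.33e-06). On PLX4032, 3 of the 6 genes rose and 2 fell in scrambled cells, where 17.3% and 16.8% of all genes did. In knockdown cells 4 rose and 0 fell, where 18.6% and 15.1% of all genes did. On knockdown in DMSO 0 rose and 2 fell, where 14.4% and 18.8% of all genes did; 5 were called with repeated quantile normalization, 0 without MITF hairpin DMSO B and 1 without scrambled hairpin DMSO A or B.

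EPHA5, an ephrin receptor among the dimmest 40% of genes, had nearly the order of MET: 5.14 and 5.33 in scrambled DMSO cells, 6.20 and 6.53 with PLX4032, 4.38 and 4.41 with the MITF hairpin, and 4.38 and 4.59 with both. It rose by 1.13 on PLX4032 in scrambled cells and fell by 1.88 on knockdown under PLX4032 (limma adjusted p = 3.13e-05 and 6.62e-07). CBLB, a ubiquitin ligase that acts on activated receptors, was 9.67 and 9.68 in scrambled DMSO cells and 10.37 and 10.32 with the MITF hairpin.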
